A study of Mus musculus with 16 samples.

Results

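Loss of CLPP was examined in hearts that also lacked FGF21, by comparing 4 heart libraries of Clpp and Fgf21 double knockout mice (double KO) with 4 of Fgf21 knockout mice (Fgf21 KO). These are 8 of the 16 libraries of the series, and the other 8 are from Clpp KO and wild-type hearts. Of 36499 gene entries in the count table, 14362 passed a filter on low counts in these 8 libraries and make up the comparison. Both groups lack Fgf21, so the genotypes compared differ in Clpp. The double KO mice descend from a cross of floxed Clpp and floxed Fgf21 alleles (Clpp fl/fl, Fgf21 fl/fl) with mice that express Cre in all tissues from the β-actin promoter. The deletion was designed for the whole body, so effects of other organs on the heart are part of the comparison, and recombination in other tissues was not analysed here. How the mice lacking Fgf21 alone were made is not described separately in the labels. All mice were fed normal chow, and the labels give neither age nor sex, nor the number of animals behind each group. P-values are therefore set against library-to-library spread alone, part of which may be technical.

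CLPP is the proteolytic subunit of ClpXP, which degrades misfolded or surplus proteins in the mitochondrial matrix and takes part in assembly of the mitochondrial ribosome. FGF21 is a hormone that liver, muscle and heart can secrete under mitochondrial or nutritional stress. Its production can be driven by the transcription factors of the integrated stress response. That response starts with kinases that phosphorylate the translation factor eIF2, and it raises ATF4 and ATF5 and their targets in amino acid and one-carbon metabolism. A second response known from cells with disturbed mitochondria is the type I interferon response, in which DNA or RNA outside its usual compartment is sensed and a broad set of antiviral genes is transcribed.

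Counts per library ran from 39758065 to 47093848. The tissue label fits the markers. Ventricular cardiomyocyte markers summed to between 34226 and 38622 CPM (counts of a gene relative to all counts of its library) in double KO hearts. In Fgf21 KO hearts they summed to between 33497 and 50946 CPM. The 4 lung markers summed to at most 0.12 CPM in double KO and 0.113 CPM in Fgf21 KO libraries, and Sftpa1 and Scgb1a1 among them had 0 counts. CPM are scaled throughout by TMM, the trimmed-mean factors of edgeR, within the 8 libraries, given in the order of replicates 1 to 4. Atrial content was uneven. The atrial cardiomyocyte markers together had 1387, 207, 288 and 261 CPM in double KO libraries and 398, 1493, 613 and 2755 CPM in Fgf21 KO libraries, so that double KO replicate 1 and Fgf21 KO replicates 2 and 4 stood above the rest. Red blood cell markers summed to 10308 CPM in double KO replicate 4, against 601 to 1749 CPM in the other double KO libraries and 1207 to 2875 CPM in Fgf21 KO libraries.

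Clpp (ENSMUSG00000002660, chr17:56990305-56996188 of GRCm38) was lower in every double KO library. It had 272, 267, 289 and 293 counts in double KO hearts, against 2636, 1910, 2007 and 1435 counts in Fgf21 KO hearts, and the groups did not overlap. The log2 fold change was -2.18 ± 0.16 (SE, adjusted p = 1.00e-04, edgeR quasi-likelihood test with Benjamini-Hochberg adjustment). Reads of Clpp did not reach 0, and which exons they came from was not analysed here. Fgf21 (ENSMUSG00000030827, chr7:45613886-45615490) had 0 counts in all 8 libraries. It was under the low-count filter in Clpp KO against wild-type hearts as well, so 0 counts say little about its deletion.

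Of the 14362 entries tested, 140 were called at an adjusted p under 0.05 (0.975% of those tested). Of these, 128 were higher in double KO hearts (0.891% of those tested) and 12 were lower (0.0836%), while the median log2 fold change of all entries was -0.01. Of the 128 that rose, 54 were in lists of the interferon response and MHC class I presentation, 10 were mRNAs encoded on mitochondrial DNA and 7 were in lists of the integrated stress response and amino acid supply. Among the 12 that fell, Clpp had the largest change. CPM of double KO libraries lay wholly above those of Fgf21 KO libraries for 562 entries (3.91% of those tested) and wholly below for 287 (2.00%). Every called entry had such separate ranges, so remarks on separate ranges of called genes add no support to their calls. One library was enough to move the count by over 1.5 times: 80 entries were called without double KO replicate 1, 88 without double KO replicate 2, 89 without Fgf21 KO replicate 1, 81 without Fgf21 KO replicate 3 and 80 without Fgf21 KO replicate 4. With the most atrial library of each group left out, a choice made after seeing the data, 55 were called (49 higher, 6 lower). That setting also had fewer libraries in each group. Scaled by library size alone, 96 entries were called higher and 11354 lower, with the median of all entries at -0.70, so changes are given relative to the TMM scale. DESeq2 called 266 (214 higher, 52 lower).

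**Figure D1:**
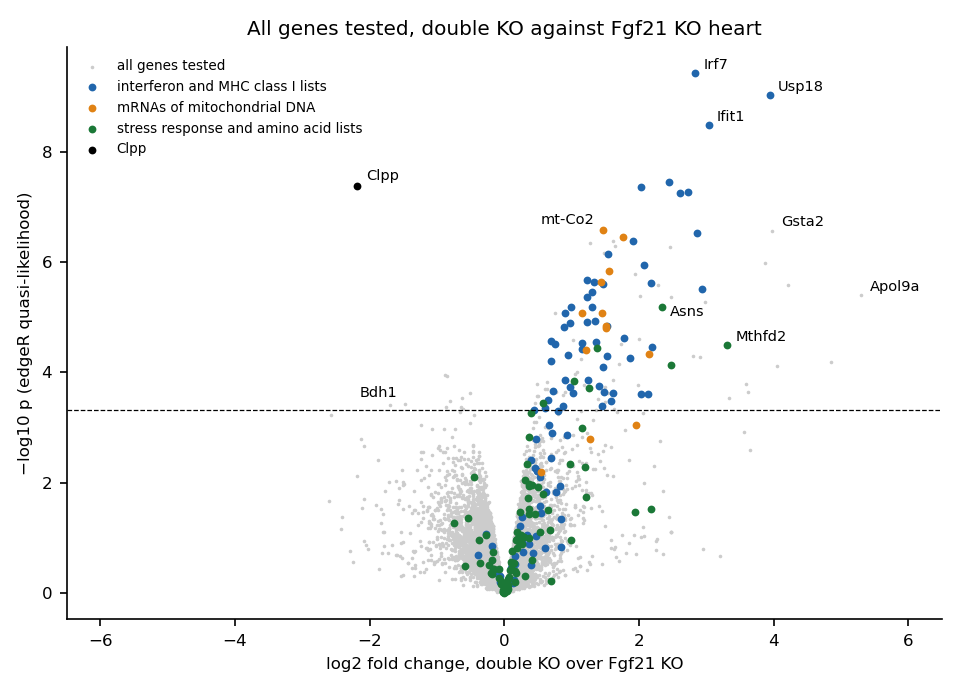
Each point is a gene entry, placed by its log2 fold change between double KO and Fgf21 KO hearts (horizontal) and by -log10 of its p from edgeR (vertical), with gene groups coloured and the dashed line at an adjusted p of 0.05. The 128 entries above the line on the right include Irf7, Usp18 and Ifit1 at the top, and Clpp stands highest among the 12 on the left.

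Interferon genes formed the largest group that rose. Over 5 lists of interferon and MHC class I genes, 98 members were tested, 54 were higher in double KO hearts and none was lower. Scaled by library size alone, the medians of the signalling and sensor lists were below 0 (-0.48 and -0.28) and those of the other 3 lists above it. With TMM the median log2 fold change of all 98 was 0.84, against -0.01 for all entries tested, and 91 of the 98 had a positive value. The lists were drawn up with earlier results of these data known, so these counts describe the hearts and are no independent evidence. Single members gave the 3 smallest p-values of the whole comparison, those of Irf7, Usp18 and Ifit1.

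Among regulators, Irf7 (chr7:141262706-141266481), the transcription factor that amplifies type I interferon transcription, had 52.7, 45.2, 40.9 and 38.3 CPM in double KO hearts and 7.05, 5.65, 6.23 and 5.97 CPM in Fgf21 KO hearts (log2 fold change 2.83 ± 0.13, adjusted p = 5.42e-06, edgeR). Usp18 (chr6:121245906-121270917), which removes ISG15 from proteins and restrains the interferon receptor, had 27.9, 33.6, 21.3 and 18.6 CPM against 1.77, 1.64, 1.61 and 1.58 CPM in Fgf21 KO hearts (3.94 ± 0.19, adjusted p = 6.83e-06). For both genes the double KO libraries lay far above the Fgf21 KO range. Irf9, the DNA-binding subunit of an interferon-activated transcription factor, had 19.4, 20.9, 18.8 and 15.6 CPM in double KO hearts and 10.5, 10.9, 12 and 10.8 CPM in Fgf21 KO hearts, a smaller difference of 0.76 ± 0.11 (adjusted p = 0.00754). Irf9 lost its call in 4 of 19 alternatives, which were library size alone, the atrial covariate, the replicate block and leaving out the most atrial libraries (adjusted p up to 0.631). Nlrc5, an activator of MHC class I genes, and the kinase Jak1 were also called. In all, 7 of 18 members of the signalling list were called, all higher (median 0.21). The receptor chains were not called, with Ifnar1 at 0.04 and Ifnar2 at -0.07. Nlrc5, Jak1 and the receptor chains were named after their values were seen.

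Antiviral effectors were called for 26 of 35 members tested, all higher, and the list's median was 1.15 (log2). Ifit1 (chr19:34640871-34650009), whose protein binds foreign 5′ ends of RNA, had 21.9, 20.4, 16.3 and 13.7 CPM in double KO hearts and 2.26, 1.85, 2.38 and 2.33 CPM in Fgf21 KO hearts (3.04 ± 0.17, adjusted p = 1.57e-05). Ifit3 had 34.6, 41.5, 23.6 and 24.1 CPM against 4.8, 4.08, 4.41 and 5.42 CPM in Fgf21 KO hearts (2.73 ± 0.20), and its neighbour Ifit3b rose by a like amount (2.87 ± 0.24). Ifit3 and Ifit3b are near copies, with 61.8% of the 31-base words of Ifit3 transcripts found also in Ifit3b, so counts between the pair are uncertain. Oasl1, an interferon-induced member of the oligoadenylate synthetase family, had 6.09, 5.51, 4.23 and 4.4 CPM in double KO hearts and 0.904, 0.831, 1.01 and 0.976 CPM in Fgf21 KO hearts (2.44 ± 0.17). Lgals3bp, a secreted glycoprotein that interferon induces, had 78.8, 90.6, 68 and 58.3 CPM against 17.3, 15.9, 21 and 18.1 CPM in Fgf21 KO hearts (2.03 ± 0.15). All 8 values of each of these genes fell into separate ranges by genotype. The kinase Eif2ak2 (PKR), which detects double-stranded RNA and phosphorylates eIF2, was also called, at 9.79, 9.57, 8.02 and 7.8 CPM in double KO hearts and 4, 5.14, 4.34 and 4.47 CPM in Fgf21 KO hearts (0.97 ± 0.13, adjusted p = 0.00384). It lost its call with library size alone and without the most atrial libraries (adjusted p up to 0.120). The other 3 eIF2 kinases lay between -0.11 and 0.07 and were not called. The 9 effectors not called included Bst2 (0.93, adjusted p = 0.112), Trim25 (0.23) and Slfn5 (0.09), which were picked after their values were seen.

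Promoters of the Ifit genes are shown because, among named interferon genes whose window held a match, these had the smallest p-values. A match was thus required for a promoter to be shown. The letters searched are those of the element that interferon-activated factors are known to bind. The letters GAAANNGAA, searched on both strands, were present in 8.57% of all 27025 RefSeq promoter windows, each of 250 bases before to 50 after a gene start, and in 7.22% of the windows of tested genes. Among called members of the 4 interferon lists other than MHC class I, 30 of 45 were matched to a window and 18 of these (60%) held the letters. Of all members, called or not, 27 of 61 matched (44.3%) held them. Capitals mark the matches, which read on these strands as the reverse complement. A match is a description of letters and not a bound site. The stretch of Ifit1 (GRCm38.p6, chr19:34640740-34640853, plus strand) holds 3 matches, the first of them starting at position -109 and overlapping the second. Positions are counted from the start that RefSeq gives, which for Ifit1 and for Asns below lies downstream of the GENCODE gene start. The stretch of Ifit3 (chr19:34583334-34583475, plus strand) also holds 3, and Ifit3b has the same 142 letters at chr19:34607730-34607871.
Ifit1: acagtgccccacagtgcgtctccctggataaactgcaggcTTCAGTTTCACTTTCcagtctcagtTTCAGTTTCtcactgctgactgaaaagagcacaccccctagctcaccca
Ifit3: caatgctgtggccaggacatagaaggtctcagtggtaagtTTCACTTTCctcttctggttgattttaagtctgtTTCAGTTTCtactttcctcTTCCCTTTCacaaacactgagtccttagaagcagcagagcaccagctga
The windows of Irf7, Oasl1, Lgals3bp and Irf9, which rose as well, held no match, and Usp18, Zbp1, Ifi204 and Iigp1 had no entry in the table.

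Sensors of nucleic acids in the cytosol were called for 5 of 14 members, all higher (median 0.41). Zbp1, which binds Z-form nucleic acid and can start cell death, had 3.12, 4.25, 1.57 and 2.14 CPM in double KO hearts and 0.285, 0.351, 0.353 and 0.45 CPM in Fgf21 KO hearts (2.94 ± 0.33, adjusted p = 0.00145). Ifih1 (MDA5), a sensor of long double-stranded RNA, had 11.7, 13.1, 9.68 and 8.19 CPM against 3.7, 3.4, 3.87 and 4.49 CPM in Fgf21 KO hearts (1.47 ± 0.16, adjusted p = 0.00127). Ddx58 (RIG-I), a sensor of RNA with a triphosphate end, differed by 0.94 ± 0.14, and Ifi204, of the HIN-200 family of DNA-binding proteins, by 1.34 ± 0.17. Ddx58 lost its call with library size alone, with the replicate block and without the most atrial libraries (adjusted p up to 0.203), and Ifi204 in the last of these (0.0632). Each of the 4 was above the Fgf21 KO range in all double KO libraries. The DNA sensor Cgas (0.13, adjusted p = 0.913), its adaptor Tmem173 (STING; -0.13, adjusted p = 0.837) and the RNA-sensing adaptor Mavs (-0.06, adjusted p = 0.91) were not called. These 3 were singled out after their values were seen.

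The interferon-inducible GTPases, which attack the vacuoles of intracellular pathogens, were called for 7 of 14 members (median 1.07), and all 14 had positive values. Irgm1 had 28.7, 38.4, 25.5 and 24.4 CPM in double KO hearts and 10.5, 12.6, 12.7 and 11.4 CPM in Fgf21 KO hearts (1.31 ± 0.15, adjusted p = 0.00155). Gbp3, a guanylate-binding protein, had 12.4, 18.5, 12.6 and 12.1 CPM in double KO hearts, with replicate 2 apart, and 5.2, 4.97, 6.36 and 5.99 CPM in Fgf21 KO hearts (1.3 ± 0.16, adjusted p = 0.00239). Gbp7 (1.36 ± 0.19) and Iigp1 (1.61 ± 0.28) were the other members named by smallest p. Gbp7 lost its call with an atrial covariate and with the most atrial libraries left out (adjusted p up to 0.0843), and Iigp1 lost it in 8 of 19 alternatives.

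Of MHC class I genes, which present peptides on the cell surface, 9 of 17 were called, all higher (median 0.70). B2m (chr2:122147686-122153083), the light chain shared by all class I molecules, had 302, 364, 270 and 227 CPM in double KO hearts and 104, 92.4, 112 and 90.6 CPM in Fgf21 KO hearts (1.54 ± 0.15, adjusted p = 5.47e-04). The heavy chain H2-K1 had 225, 290, 239 and 192 CPM against 105, 115, 97.8 and 85.5 CPM in Fgf21 KO hearts (1.23 ± 0.14). The heavy chain H2-D1 had 221, 254, 232 and 196 CPM against 122, 133, 122 and 105 CPM in Fgf21 KO hearts (0.91 ± 0.11), and it lost its call with library size alone (adjusted p = 0.138). H2-T22, a non-classical chain, differed by 1.34 ± 0.15. In each of these genes the lowest double KO library exceeded the highest Fgf21 KO library. The heavy chains share sequence, with 51% of the 31-base words of H2-T22 found in another gene, so the split between them is uncertain.

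Double KO replicates 1 and 2 had higher levels of Usp18, Ifit3 and Ifih1 than replicates 3 and 4. Leaving out each library in turn left between 20 and 26 antiviral effectors, 4 and 6 signalling members, 4 and 5 sensors, 3 and 7 GTPases and 5 and 8 class I genes called. Without the most atrial library of each group, which left fewer libraries to test, these counts were 12, 2, 2, 2 and 4. The medians of the 5 lists in that setting were 1.11, 0.27, 0.43, 1.13 and 0.69. With all 8 libraries they were 1.15, 0.21, 0.41, 1.07 and 0.70. Immune cell markers were looked at beside them. The 14 macrophage and monocyte markers summed to 172 to 249 CPM in double KO hearts and 159 to 210 CPM in Fgf21 KO hearts. Of these, 13 had positive values, and Fcgr1, a receptor for immunoglobulin, was the only one called (1.76, 2.85, 1.2 and 1.75 CPM against 0.636, 0.647, 0.671 and 0.713 CPM in Fgf21 KO hearts, 1.5 ± 0.27, adjusted p = 0.0274). Fcgr1 lost its call in 11 of 18 alternatives, among them 7 of the 8 that left out 1 library (adjusted p up to 0.199). The macrophage genes Siglec1 (2.00), Mpeg1 (1.08), Ctss (0.85) and Cybb (0.84), outside that list and named after their values were seen, were called higher too. Lymphocyte markers summed to 2.42 to 3.18 CPM in double KO and 1.85 to 2.72 CPM in Fgf21 KO hearts, and none of the 5 tested was called. The part of cell composition in the interferon values was not tested. In whole tissue, fewer cells of a type and less RNA per cell cannot be told apart.

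**Figure D2:**
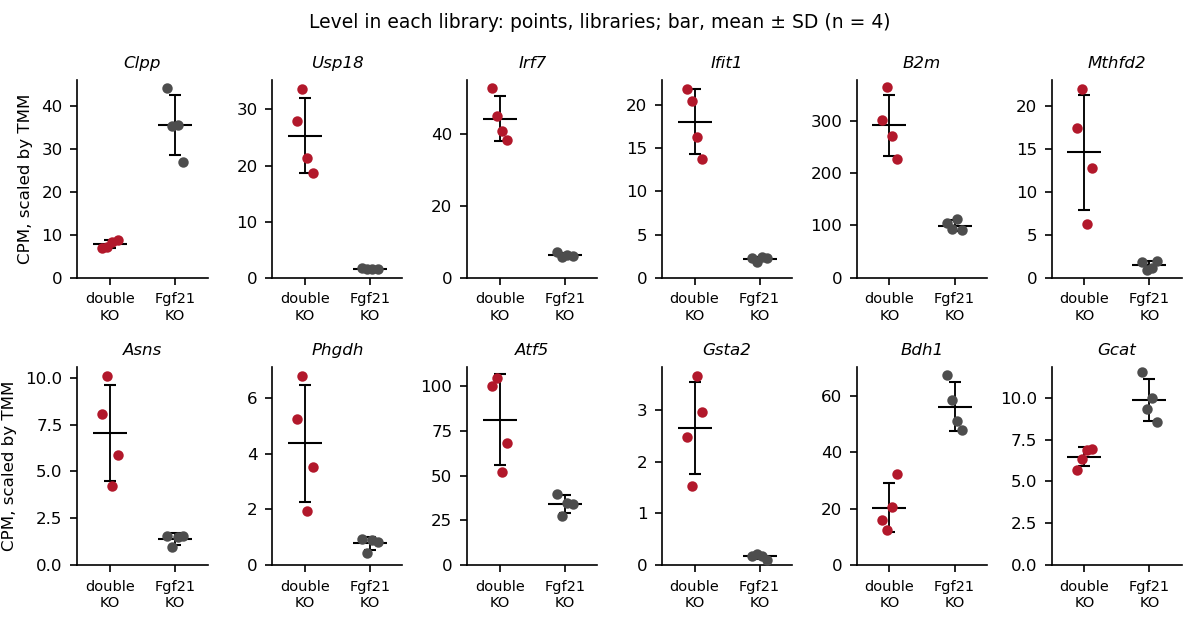
Points are libraries of double KO (left) and Fgf21 KO (right) hearts for 12 genes named in the text, on linear CPM axes that start at 0, and bars are the mean ± SD of 4 libraries. The groups do not overlap for any of the 12 genes, and for Mthfd2, Asns, Phgdh and Atf5 double KO replicates 1 and 2 are the highest.

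Transcripts of mitochondrial DNA took a larger part of the counts in double KO hearts. Together the 13 mRNAs encoded there, which code for parts of the oxidative phosphorylation complexes, made up 58.6%, 56.1%, 59.7% and 60.8% of counts in double KO libraries and 29.2%, 38.5%, 37.8% and 38.8% in Fgf21 KO libraries. The means were 58.8 ± 1.99% and 36.1 ± 4.62% (SD, n = 4 each), a difference of 22.7 percentage points (p = 0.0286 in a two-sided exact permutation test, which is as small as 4 against 4 libraries allow). The groups did not overlap, and Fgf21 KO replicate 1 was lower than the others. By gene, 10 of the 13 were called higher and none lower, with a median log2 fold change of 1.47.

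mt-Co2, a subunit of cytochrome c oxidase, had 81095, 80766, 103731 and 94776 CPM in double KO hearts and 35309, 31440, 31769 and 31693 CPM in Fgf21 KO hearts (1.47 ± 0.13, adjusted p = 3.87e-04). mt-Nd3, of complex I, had 10990, 10195, 14923 and 13566 CPM against 3520, 3395, 4394 and 3313 CPM in Fgf21 KO hearts (1.76 ± 0.16, adjusted p = 4.27e-04). mt-Atp6, of ATP synthase, differed by 1.56 ± 0.16 and mt-Nd1, of complex I, by 1.43 ± 0.15, both with separate ranges. The mRNA with the smallest difference was mt-Nd6, the one encoded on the light strand of the mitochondrial genome, with 9607, 8045, 11325 and 12206 CPM in double KO hearts and 5913, 8224, 7704 and 6277 CPM in Fgf21 KO hearts. Its ranges overlapped and it was not called (0.55 ± 0.16, adjusted p = 0.268). mt-Nd4l (1.96, adjusted p = 0.0829) and mt-Nd5 (1.28, adjusted p = 0.128) were not called either, and both were lowest in Fgf21 KO replicate 1. mt-Nd6 was singled out after its value was seen.

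Since these mRNAs were 56.1% to 60.8% of the counts in double KO libraries, the size of their change depends on the scaling. TMM, which sets most nuclear genes to no change, gave the median of 1.47, and scaling by library size alone gave 0.76, with 11 of the 13 called higher. Every word of mt-Co2 and 98.1% of those of mt-Nd3 occur also in nuclear copies, so that the split of such reads between copies is uncertain. Among the called entries, Gm13341, Gm13340 and Gm13339 are mtDNA-like nuclear pseudogenes (1.61, 1.13 and 1.63), named after their values were seen. Leaving out each library in turn left 9 to 12 mRNAs called. Without the most atrial libraries 6 were called, and the median was 1.51.

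**Figure D3:**
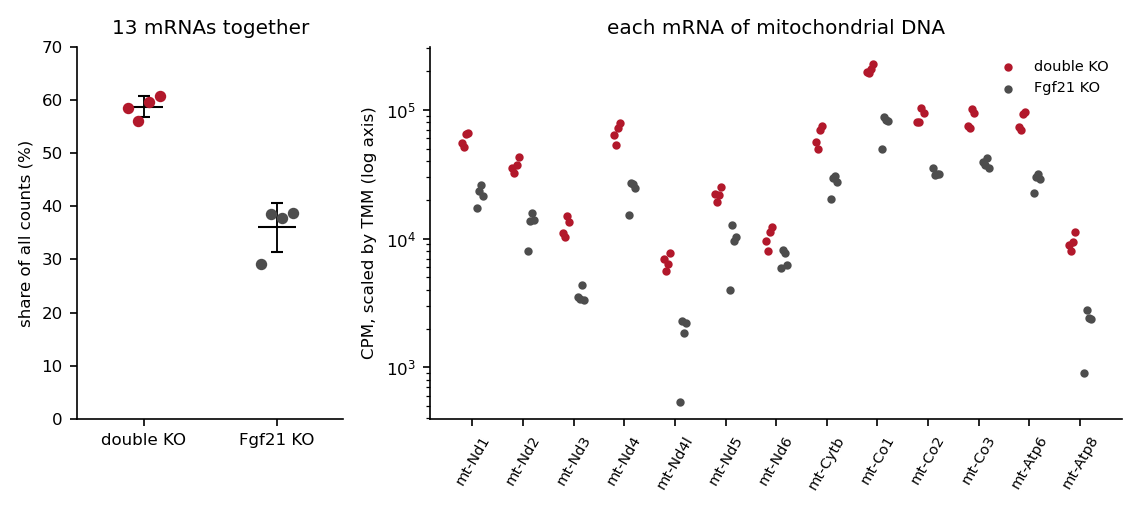
The left panel gives the share of all counts (%) from the 13 mRNAs of mitochondrial DNA in each double KO (left) and Fgf21 KO (right) library with the mean ± SD, and the right panel gives the CPM of each mRNA on a log axis, double KO left of Fgf21 KO. The shares are 56.1% to 60.8% and 29.2% to 38.8%, and mt-Nd6 is the mRNA whose ranges overlap.

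Nuclear genes for the same machinery were not called. None of 36 nuclear complex I subunits, 39 subunits of complexes II to V or 78 mitochondrial ribosomal proteins was called in either direction. Their values were small and mostly negative: 132 of these 153 genes were below 0, with medians of -0.18, -0.16 and -0.12 in the order given. Without Fgf21 KO replicate 1 these medians were -0.06, -0.06 and -0.02, and with an atrial covariate they were -0.40, -0.33 and -0.28. The member with the smallest p in each was Ndufc1 (-0.37, adjusted p = 0.486), Cox7a1 (-0.54, adjusted p = 0.21) and Mrps6 (-0.36, adjusted p = 0.314). Factors that copy and express mitochondrial DNA had a median of 0.01 over 31 genes with no call, and among them Pnpt1, an RNA-degrading enzyme of mitochondria, had the smallest p, at 16.1, 15.9, 13 and 14.8 CPM in double KO hearts and 9.79, 11.3, 11.8 and 12.6 CPM in Fgf21 KO hearts (0.39, adjusted p = 0.252). Citric acid cycle enzymes (19 genes, median 0.07) and fatty acid oxidation genes (36 genes, median 0.07, and -0.08 to 0.15 with 1 library left out) had no call.

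Partners of CLPP were not called. Of 18 mitochondrial proteases the only call was Clpp itself. Clpx, the unfoldase that feeds CLPP, stood at 0.18 (adjusted p = 0.896) and the matrix protease Lonp1 at 0.06 (adjusted p = 0.898). None of 12 mitochondrial chaperones was called (median -0.03), and the one with the smallest p was Hspa9, the main Hsp70 of the matrix, at 458, 509, 444 and 478 CPM in double KO hearts and 425, 423, 425 and 363 CPM in Fgf21 KO hearts (0.21 ± 0.10, adjusted p = 0.565). The 20 genes of the endoplasmic reticulum unfolded protein response also had no call (median -0.05). Clpx and Lonp1 were singled out after their values were seen. Genes within 1 Mb of Clpp, listed because they are inherited together with the targeted locus, were tested for 46 of 68 members, and none was called (median -0.09).

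Stress response and amino acid genes rose for a few members only. Over 6 lists, 87 members were tested, 7 were higher and none was lower, with a median of 0.17 and 65 positive values. Mthfd2 (chr6:83305691-83325908), a mitochondrial enzyme of folate one-carbon metabolism, had 17.5, 22, 6.24 and 12.7 CPM in double KO hearts and 1.87, 0.924, 1.15 and 1.95 CPM in Fgf21 KO hearts (3.31 ± 0.42, adjusted p = 0.00771). Asns (chr6:7675169-7693254), which makes asparagine, had 8.08, 10.1, 4.2 and 5.9 CPM against 1.56, 0.942, 1.52 and 1.58 CPM in Fgf21 KO hearts (2.34 ± 0.28, adjusted p = 0.00239). Phgdh, the first enzyme of serine synthesis, had 5.26, 6.8, 1.95 and 3.52 CPM against 0.937, 0.443, 0.918 and 0.845 CPM in Fgf21 KO hearts (2.48 ± 0.38, adjusted p = 0.0143). All 3 had their lowest double KO value in replicate 3, still above the Fgf21 KO range. Psat1, the next enzyme of that path, differed by 1.04 ± 0.18 (adjusted p = 0.0237). Of the 31-base words of Phgdh, 55.85% occur in another gene, so its reads may be shared. Slc7a5, a carrier of large neutral amino acids, had 8.66, 10.1, 6.88 and 7.95 CPM in double KO hearts and 2.59, 4.62, 2.61 and 3.15 CPM in Fgf21 KO hearts (1.37 ± 0.20, adjusted p = 0.00851). Iars was the one cytosolic tRNA synthetase called (0.57 ± 0.11, adjusted p = 0.0407), while 18 of 20 synthetases had positive values (median 0.25).

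Of the response's own factors and targets, 1 of 16 was called. Atf5, a transcription factor of mitochondrial stress in mammals, had 100, 105, 51.9 and 68.4 CPM in double KO hearts and 39.9, 27.5, 34.7 and 34.2 CPM in Fgf21 KO hearts (1.26 ± 0.22, adjusted p = 0.0287). The list's median was 0.30. Atf4 mRNA was at 0.17 (adjusted p = 0.818). Gdf15, a hormone that like FGF21 is released under mitochondrial stress, had 2.82, 7.15, 0.408 and 0.873 CPM in double KO hearts and 0.887, 0.259, 0.689 and 0.638 CPM in Fgf21 KO hearts, so that its ranges overlapped and it was not called (2.18 ± 0.83, adjusted p = 0.486). Chac1, an enzyme that degrades glutathione, was likewise spread within the double KO group, at 8.13, 12.3, 0.758 and 4.76 CPM, against 3.1, 0.924, 0.989 and 1.71 CPM in Fgf21 KO hearts (1.95 ± 0.75, adjusted p = 0.498). Atf4, Gdf15 and Chac1 were singled out after their values were seen. Of these calls, Asns kept its call in all 19, Mthfd2 and Slc7a5 lost it in 1, which left out the most atrial libraries, Phgdh in 7, Atf5 and Psat1 in 10 and Iars in 11. Without Fgf21 KO replicate 1, 3 or 4 or double KO replicate 1, neither Phgdh nor Atf5 was called.

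The letters TGATGNAA, a core of the element that ATF4 and its partners are known to bind, were searched on both strands and found in 4.06% of all promoter windows and 2.33% of those of tested genes. The search covered 4 of the 6 lists, without the tRNA synthetases and the amino acid transporters and so without Iars and Slc7a5. Of their 5 called genes 1 held the letters, and of 41 matched members 7 did (17.1%). That gene was Asns, whose promoter is shown because it was the only one of these called genes with a match. The match, in capitals, starts at position -23 from the RefSeq start, inside the GENCODE gene as given above, in the stretch chr6:7693185-7693272 (GRCm38.p6, minus strand, written 5′ to 3′ on that strand).
Asns: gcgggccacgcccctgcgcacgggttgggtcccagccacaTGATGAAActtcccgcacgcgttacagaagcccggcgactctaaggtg
The windows of Mthfd2, Phgdh, Psat1 and Atf5 held no match, which says only that these letters are not in them.

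Of the alpha-class glutathione S-transferases, Gsta2 and Gsta1 rose. Gsta2 had 2.47, 1.53, 3.65 and 2.95 CPM in double KO hearts and 0.167, 0.222, 0.177 and 0.0938 CPM in Fgf21 KO hearts (3.98 ± 0.34, adjusted p = 3.87e-04). Gsta1 had 8.48, 6.16, 14 and 10.5 CPM against 2.39, 1.46, 1.27 and 1.9 CPM in Fgf21 KO hearts (2.47 ± 0.28, adjusted p = 0.00172). These detoxifying enzymes are close relatives, and 92.9% of the words of Gsta1 occur in another gene, so reads may be shared. The other 19 of 21 transferases tested were not called (list median -0.05). Of 29 targets of NRF2, the factor that drives antioxidant genes, and antioxidants, Nqo1 (1.05 ± 0.17, adjusted p = 0.0194) and Me1 (0.56 ± 0.11, adjusted p = 0.0407) were called higher, and the median was 0.17. Nqo1 lost its call in 5 of 19 alternatives and Me1 in 12. The largest fold change named was that of Apol9a, an apolipoprotein L family gene, with 4.73, 10.6, 4.84 and 2.23 CPM in double KO hearts and 0.0837, 0.166, 0.0883 and 0.225 CPM in Fgf21 KO hearts (5.30 ± 0.55, adjusted p = 0.00172). In counts these were 188, 394, 166 and 74 against 5, 9, 5 and 12. Its copy Apol9b rose by 4.22 ± 0.45, and 64.9% of the words of Apol9b are shared with Apol9a.

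**Figure D4:**
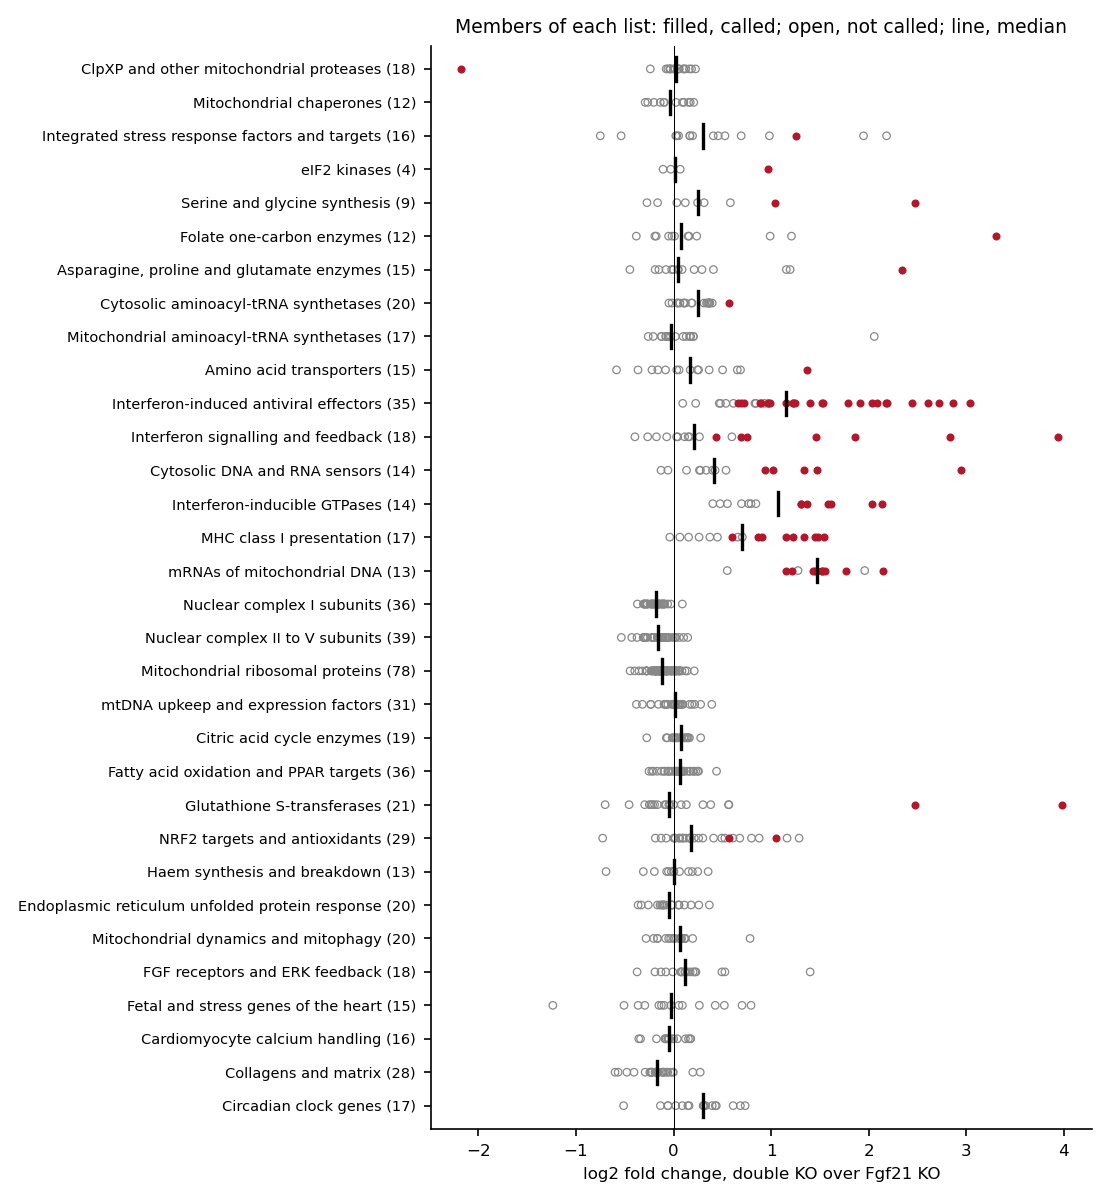
Each point is a tested member of a gene list, placed by its log2 fold change between double KO and Fgf21 KO hearts, filled where called, with a vertical line at the list's median and the number tested after its name. The medians of the antiviral effectors (1.15), GTPases (1.07) and mRNAs of mitochondrial DNA (1.47) stand apart from 0, and the nuclear respiratory chain lists lie just below it.

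Among called genes with separate ranges, a mean of at least 1 CPM and a named symbol, Bdh1 fell most after Clpp. Bdh1 (chr16:31422280-31458901) encodes the mitochondrial enzyme that interconverts the ketone bodies acetoacetate and 3-hydroxybutyrate. Outside that choice, Bfsp2 (-1.69) and Gm33543 (-1.68) were called lower too. Genes that were not called reached lower values than Bdh1, with minima of -1.86 in the atrial marker list and -2.06 in the fat marker list. Bdh1 had 16, 12.5, 20.7 and 32.3 CPM in double KO hearts and 67.4, 58.5, 51.2 and 47.8 CPM in Fgf21 KO hearts (-1.47 ± 0.27, adjusted p = 0.0417), with separate ranges. Ano10, of the anoctamin membrane protein family, had 22.5, 18.5, 18.9 and 21.2 CPM against 49.8, 33.8, 32.4 and 33.4 CPM in Fgf21 KO hearts (-0.88 ± 0.15, adjusted p = 0.0204). Slc37a2, a sugar phosphate carrier, had 1.74, 1.67, 1.55 and 1.81 CPM against 2.96, 2.92, 2.97 and 3.3 CPM in Fgf21 KO hearts (-0.85 ± 0.14, adjusted p = 0.0204). None of these 3 genes overlapped between the groups, which the choice of genes required. Gcat, which cleaves the threonine product 2-amino-3-ketobutyrate to glycine in mitochondria, had 5.71, 6.37, 6.88 and 6.96 CPM against 11.5, 9.37, 10 and 8.54 CPM in Fgf21 KO hearts (-0.61 ± 0.12, adjusted p = 0.0484). Of the 31-base words of Gcat, 46.9% occur in another entry of the same symbol, so its reads may be shared. Tpm2 (-0.87), a tropomyosin, Myl9 (-0.80), a myosin light chain of smooth muscle, Camk2b (-0.64), a calcium-dependent kinase, Col11a2 (-0.63), a collagen chain, and Ttc7 (-0.50) were the others named by size. These 9 genes each lost their call in 5 to 13 of 19 alternatives, with Ano10 lost least often, and the leave-outs of single libraries were among them for every gene. Smooth muscle and pericyte markers had a median of -0.37 with no call, beside Tpm2 and Myl9. With atrial content as a covariate, the adjusted p was 0.376 for Tpm2 and 0.330 for Myl9, with log2 fold changes of -0.74 and -0.77.

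Hormone and growth factor genes were examined because both groups lack FGF21. Of 18 FGF receptors and feedback genes of the ERK pathway that FGF receptors activate, none was called (median 0.12, and 0.07 to 0.24 with 1 library left out). Dusp4, an ERK phosphatase, had the smallest p, at 1.61, 3.39, 4.02 and 0.632 CPM in double KO hearts and 0.536, 0.831, 0.777 and 1.52 CPM in Fgf21 KO hearts (1.40, adjusted p = 0.473). The 15 fetal and stress genes of the heart (median -0.03), 16 genes of calcium handling (-0.05), 28 collagens and matrix genes (-0.17), 17 circadian clock genes (0.30), 20 genes of mitochondrial dynamics and mitophagy (0.06) and 13 of haem metabolism (0.00) also had no call. The clock median was -0.05 without double KO replicate 4 and up to 0.37 with another library left out, and it was -0.02 with an atrial covariate. The matrix median was -0.35 without double KO replicate 1, -0.02 without Fgf21 KO replicate 4 and 0.07 with an atrial covariate. Ankrd1, a stretch-responsive cardiac gene, had the smallest p of the fetal list (0.79, adjusted p = 0.439). Lars2, a mitochondrial tRNA synthetase, varied within groups, at 345, 2675, 2952 and 388 CPM in double KO hearts and 857, 185, 292 and 195 CPM in Fgf21 KO hearts, and was not called (2.06 ± 0.93, adjusted p = 0.575). None of the fibroblast (median -0.20), endothelial (-0.17), Schwann cell (-0.23), neutrophil (-0.03) or epicardial (0.42) markers was called. Nor was any fat (-1.31), skeletal muscle (-0.43) or melanocyte (-0.56) marker. The atrial (-1.08), conduction system (-0.51) and red blood cell (1.05) lists had no call either. All 9 atrial markers tested had negative values. With 1 library left out, the atrial median ran from -1.65 to -0.44 and the red blood cell median from -0.94 to 1.42.

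The same loss of CLPP can be set beside hearts that have Fgf21, with other libraries: 4 of Clpp KO and 4 of wild type, fitted on their own. There, 151 of 14630 entries were called (1.03%). The wild-type group was uneven. Its replicate 2 had 4.19 CPM over 4 Y-linked genes (scaled by total counts), against 47.5 to 76.2 CPM in the other wild-type libraries. mRNAs of mitochondrial DNA were 25.5% of its counts, against 28.9% to 39.4% in those. Without that library, 214 entries were called. Of the 140 entries called in double KO against Fgf21 KO, 64 were also called with Fgf21 present, all in the same direction, which is 45.7% of the calls without Fgf21 and 42.4% of those with it. All 128 entries called higher had a positive value there and all 12 called lower a negative one. The share of same signs over all entries tested is not given, so these numbers have no background beside them. Medians of the entries called higher were 1.46 without Fgf21 and 1.27 with it. Since those entries were chosen by their calls in double KO against Fgf21 KO, the larger first value is not a result.

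By group, the interferon lists had 54 of 98 members called without Fgf21 and 29 with it (medians 0.84 and 0.58). Usp18 stood at 3.94 and 3.4, Irf7 at 2.83 and 2.19, Ifit1 at 3.04 and 2.63, and B2m at 1.54 and 0.96. The stress and amino acid lists had 7 of 87 called without Fgf21 and 19 with it (medians 0.17 and 0.26). Mthfd2 stood at 3.31 and 3.84, Asns at 2.34 and 3.10, Phgdh at 2.48 and 3.29, and Atf5 at 1.26 and 2.08. The mRNAs of mitochondrial DNA had 10 and 4 of 13 called, with medians of 1.47 and 1.55. A call in one comparison and not in the other does not show a difference, so the difference itself was tested.

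The difference of the effects of CLPP loss without and with Fgf21 was tested as an interaction over all 16 libraries. No entry of 15255 was called (0%, smallest adjusted p 1.00, edgeR), with 299 at an unadjusted p under 0.05, while DESeq2 called 3. Of the 140 entries called in double KO against Fgf21 KO, 21 had an unadjusted interaction p under 0.05. Those entries were chosen by a comparison that is part of the interaction, so this count is not a result. The median interaction was 0.21 over the interferon lists, where 12 of 98 members were under 0.05 unadjusted, and -0.11 over the stress and amino acid lists, where 8 of 87 were, against 0.02 over all entries. Irf7 had an interaction of 0.65 (unadjusted p = 0.0185), B2m 0.59 (0.0162) and Atf5 -0.81 (0.0184), none of which held after adjustment. These genes were singled out after their values were seen. A p that misses the threshold does not show that the effects were equal.

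**Figure D5:**
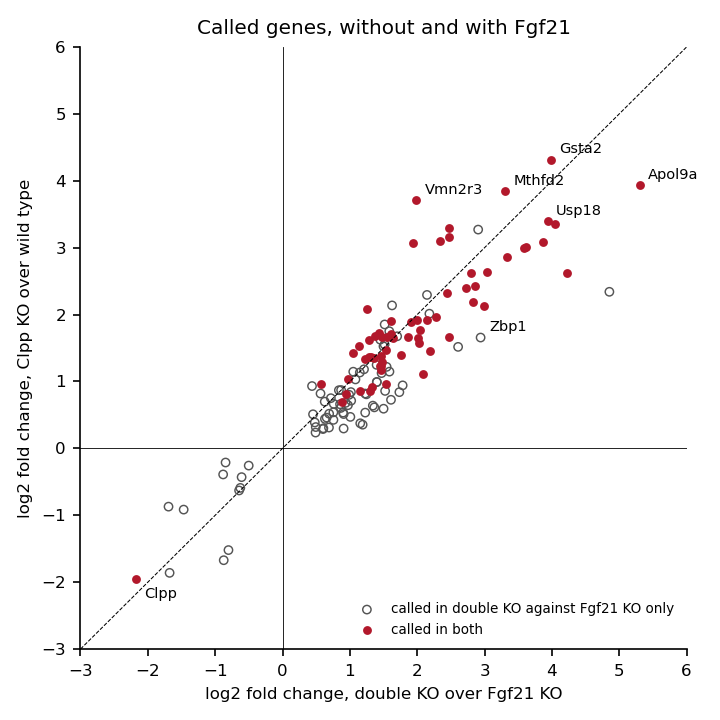
Each of the 140 entries called in double KO against Fgf21 KO hearts is placed by its log2 fold change there (horizontal) and in Clpp KO against wild-type hearts (vertical), filled where called in both, with the dashed line marking equal values. All points lie in the upper right or lower left, and 64 are filled.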

How the data were processed

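The values the authors deposited are counts, whole numbers for each gene entry in 16 libraries, made by the authors from stranded mRNA libraries. Per the submitters' processing notes, fastp 0.21.0 and kallisto 0.46.1 were used on GRCm38.p6, together with edgeR 3.32.1, DESeq2 1.30.1 and R 4.0.3, but no label says how estimated counts became whole. Nor is it said whether counting used strand, and reads of overlapping or antisense partners may thus be mixed. Of 36499 entries, 440 symbols stood on more than 1 entry and 550 identifiers had no match in GENCODE M21, the source of coordinates. Of the entries tested, 315 had counts identical to another entry in all 16 libraries, and 2 of these, both Slfn8, were among the 140 called.

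Here, entries were kept by filterByExpr of edgeR 4.0.16 (count minimum 10, total minimum 15), scaled by TMM and fitted with a robust quasi-likelihood model on the 8 libraries alone, with 6 residual degrees of freedom and a biological coefficient of variation of 0.206. TMM factors were 0.718 to 0.856 in double KO and 1.20 to 1.34 in Fgf21 KO libraries. Tests were two-sided, with Benjamini-Hochberg adjustment over all entries and a threshold of 0.05. Errors after ± on log2 fold changes are standard errors. The same fit was made for Clpp KO against wild type, and 1 fit to all 16 libraries gave the interaction. DESeq2 1.42.0, limma 3.58.1 and other settings were alternatives, run with R 4.3.3. The steps were tested on simulated counts. At the depth of these libraries, counting error is small beside the spread between libraries for all but the lowest genes.

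The comparison, the gene lists and the rule for named genes were chosen with earlier results of these data known. The rule names Clpp and Fgf21, the 10 largest changes in each direction among called genes with a mean of at least 1 CPM, separate ranges and a symbol of their own, and from each list as many as 4 called members, taken by p, or 1 member where none was called. Lists are described by counts and medians, with no set test. Shared sequence was counted as 31-base words of annotated transcripts. Promoter sequences are from RefSeq, build GRCm38.p6. No replicate pair looked like 1 library deposited again. The values of 1 gene that the rule names are not reported here. Alternatives and their effect are given at the end.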

Additional observations from a re-analysis of the deposited data

Results flagged for a closer look

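In 166 groups of 4 libraries looked at, 15 had 1 library far from the other 3 by the gap relative to the group's range. Chance flags about 1 in 20 such groups, and no cause was tested. All values are CPM scaled by TMM unless a share is named.

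Among double KO libraries, replicate 2 was high for the GTPases Gbp3 (18.5, others 12.1 to 12.6) and Gbp7 (14.6, others 9.04 to 9.89) and low for Me1 (110, others 120 to 122). Replicate 4 was high for the endothelial marker Eng (146, others 110 to 111) and for the red cell membrane protein Slc4a1 (4.16, others 0.0807 to 0.146). Replicate 1, the most atrial of the 4, was high for the myelin gene Mbp (4.00, others 1.75 to 2.12).

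Among Fgf21 KO libraries, replicate 1 was low in the share of counts from mRNAs of mitochondrial DNA (29.2%, others 37.8% to 38.8%), yet high for mt-Co2 among them (35309, others 31440 to 31769). It was also high for Ano10 (49.8, others 32.4 to 33.8) and Lars2 (857, others 185 to 292). Replicate 2 was low for Ifit3b (1.11, others 2.01 to 2.14) and Asns (0.942, others 1.52 to 1.58). Replicate 4, the most atrial of that group, was high for Slc37a2 (3.30, others 2.92 to 2.97) and Cd8a (0.319, others 0.184 to 0.203) and low for Hspa9 (363, others 423 to 425).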

How the results depend on the processing

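For double KO against Fgf21 KO, DESeq2 called 266 entries, limma voom with quality weights 232, a covariate for atrial content 61 and library size alone 11450. Without the most atrial library of each group, chosen after seeing the data, 55 were called. Leaving out 1 library gave 80 to 131. Of 140 calls 128 were higher with TMM, against shares called higher of 80.5% with DESeq2, 81% with voom and 0.838% with library size alone. Of the 50 called genes named, 50 kept their call with DESeq2, 42 with all 16 libraries in the fit, 30 with the atrial covariate and 26 without the most atrial libraries. Signs reversed for Iars (-0.11) and Me1 (-0.13) with library size alone, which moves all entries down. For Clpp KO against wild type, DESeq2 called 701, the atrial covariate 2000, library size alone 11118 and leave-outs 42 to 214. The interaction had 3 calls with DESeq2, 1 with the atrial covariate and 0 in the leave-outs. The causes were not tested.

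The mtDNA-encoded mRNA share of counts differed by 20.4 to 23.6 points with 1 library left out, where p cannot go below 0.0571. Replicate numbers did not pair the samples: deviations of libraries with the same number correlated at -0.25 to -0.12, and no library correlated best with its own number. With the replicate block, 79 entries were called in the main comparison and 53 in Clpp KO against wild type, and the share differed by 22.7 points (exact sign-flip p = 0.125, the smallest possible).

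Depth limits little here beside 4 libraries a group. Genes with few counts, such as Apol9a in Fgf21 KO hearts, are the exception. Genotype cannot be told apart from anything else that differed between the groups, such as litter or day of dissection, which the labels do not give.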

Other observations

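Of the 140 called entries, 63 stood in none of the lists. The following were named after their values were seen. Called higher among them were the HIN-200 family members Ifi206 (log2 fold change 3.87), Ifi213 (2.47), Ifi209 (1.74) and Ifi208 (1.70), the RNA helicase Ddx60 (2.28), the chemokines Cxcl10 (2.80) and Ccl5 (1.59), and Siglec1 (2.00), a lectin of macrophages. Mpeg1 (1.08), Cybb (0.84) and Ctss (0.85), which are also abundant in macrophages, were called as well.

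Of other calls outside the lists, Nudt14, a hydrolase of UDP-glucose, rose by 1.64 (1.65 in Clpp KO against wild type), Cdh4, a cadherin, by 1.94 (3.06), the centrosomal gene Cep295 by 1.48 (1.66), the transcription factor Myc by 1.61 (0.73, not called there) and the glycogen branching enzyme Gbe1 by 0.63 (0.70, not called there). Of the 16485 31-base words of Cep295, 4 occur in genes of mitochondrial DNA, and whether mitochondrial reads add to its counts was not tested. Vmn2r3, annotated as a vomeronasal receptor, rose by 1.99 in double KO hearts against Fgf21 KO hearts and by 3.71 in Clpp KO hearts against wild type. DESeq2's 3 interaction calls were Eps8l1 and the pseudogene-like entries Gm4294 and Eif4a-ps4, and the atrial covariate's single call was Ahsg.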
